A study of Xenopus laevis with 6 samples.

Results

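Growth hormone, prolactin and the glycoprotein hormones are among the secreted products of the anterior pituitary, and their transcripts were read from Affymetrix arrays of a brain and pituitary block of juvenile *Xenopus laevis*. The hormone genes were *gh1* (growth hormone), *prl.1* (prolactin), *cga* (the alpha subunit shared by the glycoprotein hormones), *lhb* and *fshb* (the beta subunits of luteinizing and follicle-stimulating hormone) and *tshb* (the beta subunit of thyrotropin). Their members were all probe sets annotated with 1 of these symbols alone, once the suffixes .L and .S were removed. The *X. laevis* genome is allotetraploid. Copies on the long and the short chromosomes of a pair, called homeologs, are told apart by .L and .S. Of the 6 genes, 5 were measured, by 11 probe sets among 32539 tested. No single-symbol probe set carried *tshb*, which was not analysed here.

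Leptin frogs had received recombinant *X. laevis* leptin into the brain ventricles at 20 ng per g body weight, and saline frogs the 0.6% saline vehicle by the same route. The tissue, taken 2 h later, held preoptic area, hypothalamus and pituitary together. There were 3 leptin frogs (numbered 4 to 6) and 3 saline frogs (numbered 1 to 3), all juveniles with an average body weight of 0.8 g, and each frog had 1 array. The labels give no strain or sex, and they name frogs but no separate experiments, so the p-values measure the spread between these frogs only.

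Each hormone comes from a specialised endocrine cell. Somatotropes make growth hormone, which drives body growth and acts on metabolism, and lactotropes make prolactin, which in amphibians is known for its part in water and salt balance and in larval growth. Gonadotropes and thyrotropes make the glycoprotein hormones, in which the common alpha subunit pairs with a beta subunit that gives the hormone its specificity. Luteinizing and follicle-stimulating hormone act on the gonads, and thyrotropin acts on the thyroid. Releasing and inhibiting factors from the preoptic area and hypothalamus govern these cells.

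All values are the deposited log2 signals, in which a difference of 1 is a doubling of the signal. The array medians ran from 7.36 to 7.46, and pairs of arrays correlated at 0.983 to 0.995 over the whole table. Signals of different probe sets cannot be set against each other as amounts of transcript, because probes differ in how strongly they hybridize. Where a homeolog had more than 1 probe set, these are called brighter and dimmer by their mean signal over the 6 frogs. The probe sets covered both homeologs of *gh1*, *prl.1* and *cga*, and the .L copy only of *lhb* and *fshb*. There were 2 probe sets each for *gh1.L*, *prl.1.S* and *cga.S*. The dimmer *prl.1.S* probe set carries the suffix that Affymetrix gives to probes shared by several transcripts.

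Saline frog 1 had low signal for every hormone, and this shaped the whole comparison. All 11 probe sets were lowest in that frog, where 14.4% of all probe sets were lowest. All 11 lay at least 1 log2 unit below the median of the other 5 frogs, against 0.624% of all probe sets, and 7 of them lay at least 4 units below, against 0.0492% (16 probe sets). Of the 32539 probe sets, the 6 with the largest deficits in saline frog 1 were all hormone probe sets: *prl.1.L*, the dimmer *prl.1.S*, the brighter *gh1.L*, *gh1.S*, the brighter *cga.S* and the brighter *prl.1.S*. In saline frog 1 these 6 stood at percentiles 0.307 to 17.2 of that array's signals. Their deficits are differences between deposited signals, of which 1 is near the bottom of the range, and they give no fold of transcript. One animal has no replicate and was singled out by these signals, so its deficit is a description with no test. In a block of several tissues, fewer hormone cells and less hormone RNA per cell cannot be told apart.

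**Figure D1:**
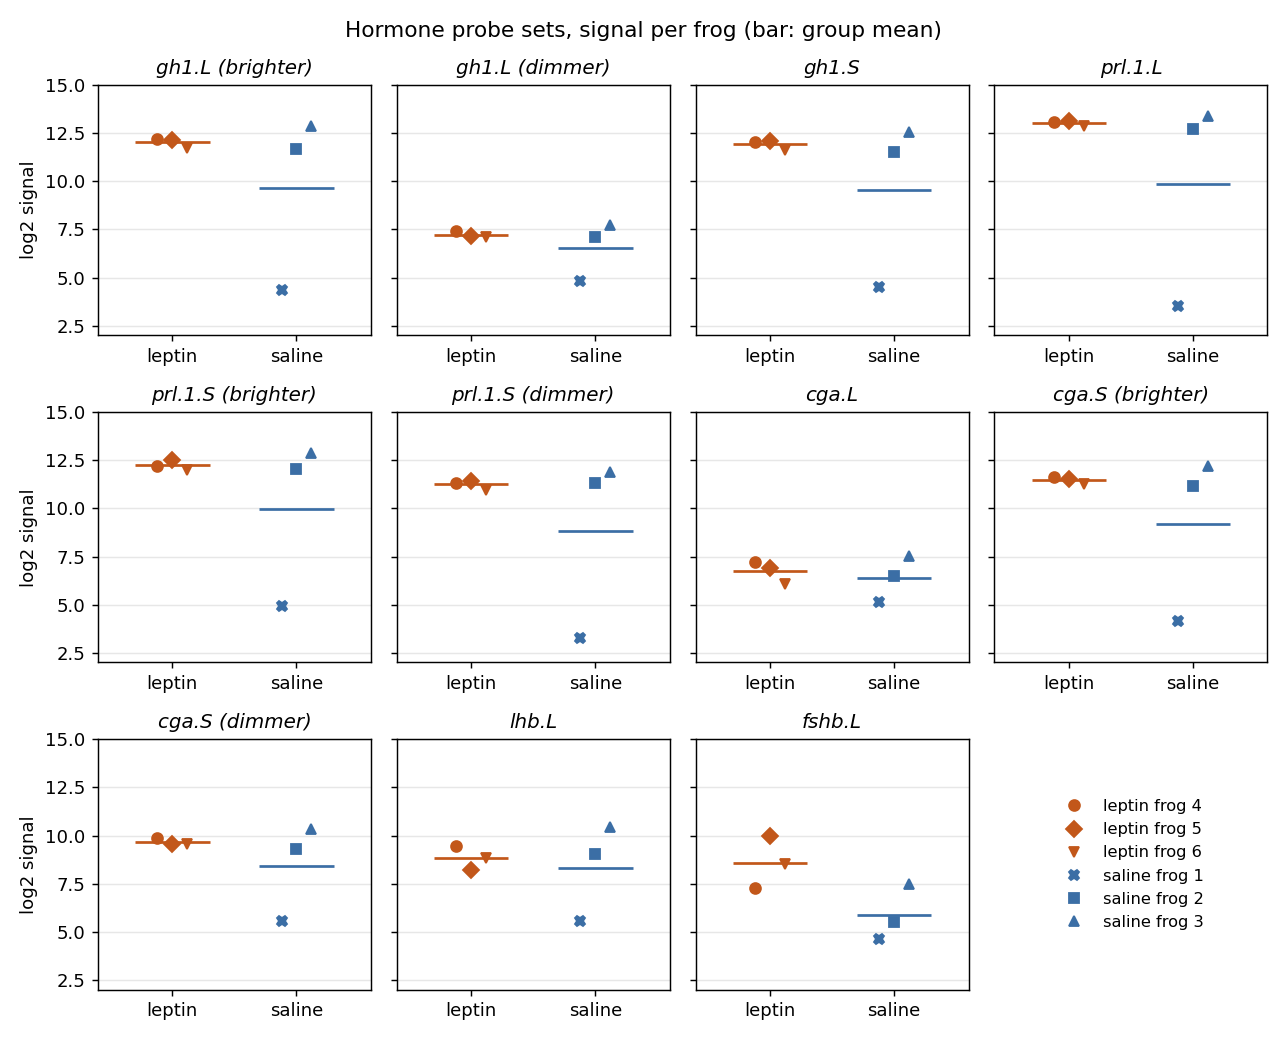
Log2 signal of the 11 hormone probe sets (vertical axis) in each frog, with leptin frogs 4 to 6 on the left of each panel and saline frogs 1 to 3 on the right, and a bar at each group mean. Saline frog 1 (cross) is the lowest point in all 11 panels, and the other 5 frogs are spread most widely in *fshb.L* (4.48 units) and *lhb.L* (2.25 units).

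Growth hormone signal was lowest in saline frog 1, and the leptin frogs overlapped with the other saline frogs. The brighter *gh1.L* probe set read 12.17, 12.15 and 11.74 in leptin frogs 4, 5 and 6, against 4.35, 11.69 and 12.84 in saline frogs 1, 2 and 3. The *gh1.S* probe set read 12.03, 12.11 and 11.63 in the leptin frogs, against 4.50, 11.52 and 12.58 in the saline frogs in the same order. In both copies saline frogs 2 and 3 enclosed the 3 leptin frogs, so the groups overlapped. The dimmer *gh1.L* probe set read 7.42, 7.16 and 7.12 in leptin frogs, against 4.80, 7.10 and 7.72 in saline frogs. It ordered the saline frogs in the same way on a narrower scale, and its deficit in saline frog 1 was 2.37 log2 units below the median of the others, compared with 7.79 for the brighter probe set.

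With all frogs, *gh1.L* averaged 12.02 ± 0.24 in leptin frogs and 9.63 ± 4.61 in saline frogs (SD, n = 3 each). The difference of 2.39 had a standard error (SE) of 2.09 and did not pass limma's moderated test after Benjamini-Hochberg adjustment over all probe sets (adjusted p = 0.906). The difference was -0.25 once saline frog 1 was omitted (SE 0.36, 95% interval -1.14 to 0.64, limma adjusted p = 0.962). For *gh1.S*, the differences were 2.39 with all frogs (SE 1.99) and -0.13 without saline frog 1 (SE 0.34, 95% interval -0.97 to 0.72). The sign of the growth hormone difference therefore rested on 1 saline animal. The related *gh2.S*, a further growth hormone gene of the frog that was not among the hormone genes chosen, read 11.43, 11.37 and 11.19 in leptin frogs, against 5.92, 10.47 and 12.27 in saline frogs. Its difference was 1.78 with all frogs (SE 1.48) and -0.039 without saline frog 1 (SE 0.51).

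Prolactin had the largest deficit of all probe sets in saline frog 1. The *prl.1.L* probe set read 13.08, 13.14 and 12.84 in leptin frogs 4, 5 and 6, against 3.54, 12.70 and 13.39 in saline frogs 1, 2 and 3. Over the 5 frogs other than saline frog 1 it spanned 0.68 log2 units, and saline frog 1 lay far below all of them. The brighter *prl.1.S* probe set read 12.21, 12.52 and 11.97 in leptin frogs, against 4.91, 12.04 and 12.90 in saline frogs. The dimmer one read 11.34, 11.44 and 10.97 in leptin frogs, against 3.29, 11.31 and 11.89 in saline frogs. In saline frog 1 this dimmer probe set stood at percentile 0.307 of that array's signals and *prl.1.L* at percentile 1.58, so both were at the bottom of the signal range.

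The mean *prl.1.L* signal was 13.02 ± 0.16 in leptin frogs and 9.88 ± 5.50 in saline frogs (SD, n = 3 each), a difference of 3.15 (SE 2.49, limma adjusted p = 0.906). In the comparison that omitted saline frog 1 the difference was -0.024 (SE 0.22, 95% interval -0.59 to 0.54). That was the smallest difference of the 11 probe sets in the 5-frog comparison. The *prl.1.S* probe sets then differed by -0.24 (SE 0.29, brighter) and -0.35 (SE 0.23, dimmer), with limma adjusted p = 0.962 for each.

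The common alpha subunit, which all the glycoprotein hormones need, followed growth hormone in its brighter probe set. That *cga.S* probe set read 11.62, 11.51 and 11.28 in leptin frogs 4, 5 and 6, against 4.16, 11.17 and 12.20 in saline frogs 1, 2 and 3. The dimmer *cga.S* probe set read 9.87, 9.55 and 9.54 in leptin frogs, against 5.54, 9.31 and 10.34 in saline frogs. The groups overlapped in both, with saline frog 3 highest and saline frog 1 lowest. The *cga.L* probe set read 7.22, 6.91 and 6.10 in leptin frogs, against 5.16, 6.48 and 7.51 in saline frogs. Its deficit in saline frog 1 was 1.74 log2 units, compared with 7.34 for the brighter *cga.S* probe set, and *cga.L* stood at percentile 38.9 of mean signal over all probe sets. The brighter *cga.S* averaged 11.47 ± 0.18 in leptin frogs and 9.18 ± 4.37 in saline frogs (SD, n = 3 each). The difference was 2.29 (SE 1.98, limma adjusted p = 0.906). Omitting saline frog 1 made it -0.22 (SE 0.31, 95% interval -1.004 to 0.567).

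Among the 5 frogs other than saline frog 1, the beta subunit of luteinizing hormone spanned 2.25 log2 units, against 1.03 to 1.42 for the alpha subunit probe sets. The *lhb.L* probe set read 9.47, 8.19 and 8.83 in leptin frogs 4, 5 and 6, against 5.54, 9.02 and 10.45 in saline frogs 1, 2 and 3. Leptin frog 4 lay between saline frogs 2 and 3, and leptin frogs 5 and 6 lay below both of them. The means were 8.83 ± 0.64 in leptin frogs and 8.34 ± 2.52 in saline frogs (SD, n = 3 each), a difference of 0.49 (SE 1.18, limma adjusted p = 0.947). Omitting saline frog 1 made it -0.91 (SE 0.54, 95% interval -2.25 to 0.44, limma adjusted p = 0.962).

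The beta subunit of follicle-stimulating hormone was the only hormone transcript higher in leptin frogs with and without saline frog 1, but it did not pass adjustment in either comparison. The *fshb.L* probe set read 7.26, 9.99 and 8.53 in leptin frogs 4, 5 and 6, against 4.63, 5.51 and 7.49 in saline frogs 1, 2 and 3. Leptin frogs 5 and 6 lay above all saline frogs, whereas leptin frog 4 lay below saline frog 3, so the groups overlapped. The means were 8.59 ± 1.36 in leptin frogs and 5.87 ± 1.47 in saline frogs (SD, n = 3 each). The difference was 2.72 (SE 0.91, 95% interval 0.53 to 4.90), with an unadjusted limma p of 0.0221 and an adjusted p of 0.906. It ranked 560 by p among the 32539 probe sets. An exact permutation test over frogs, two-sided, gave p = 0.2, where 3 frogs against 3 cannot give less than 0.1.

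Without saline frog 1, *fshb.L* differed by 2.09 (SE 0.94, 95% interval -0.27 to 4.45, limma unadjusted p = 0.0721, adjusted p = 0.962), a 4.27-fold higher signal in leptin frogs. The exact permutation p was then 0.4, with 0.2 the smallest that 3 frogs against 2 allow. Leaving out any other single frog gave differences between 2.02 (without leptin frog 5) and 3.53 (without saline frog 3). The 5 frogs other than saline frog 1 spanned 4.48 log2 units in *fshb.L*, the 29th widest span of the 32539 probe sets, against a median span of 0.37.

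The gonadotropin beta subunits did not order the frogs alike. Leptin frog 5 had the highest *fshb.L* signal of the 6 frogs and the lowest *lhb.L* signal of the 5 frogs other than saline frog 1. The response of *fshb.L* minus that of *lhb.L*, a comparison chosen after the values were seen, was 2.22 log2 units with all frogs (exact permutation p = 0.2, two-sided). It was 3.00 without saline frog 1 (exact permutation p = 0.2, the smallest that 3 against 2 allow). There the signal of *fshb.L* minus that of *lhb.L* was -2.21, 1.79 and -0.29 in leptin frogs 4, 5 and 6. It was -3.52 and -2.96 in saline frogs 2 and 3, and these did not overlap with the leptin frogs. Saline frog 1, at -0.92, lay above leptin frog 4, so the groups overlapped with all frogs. Neither exact test could pass 0.05 at these group sizes, so a different response of these subunits is neither shown nor excluded.

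Taking the hormone probe sets together, 11 of 11 were higher in leptin frogs with all 6 frogs, where 52.4% of all probe sets were higher. The median hormone difference was 2.29, against 0.0079 over all probe sets. A difference of at least 1 log2 unit upward was reached by 8 of the 11, against 0.141% of all probe sets (46 of 32539). None passed limma's adjusted threshold of 0.05, as for the whole table (0 of 32539, 0%), and 1 of 11, *fshb.L*, had an unadjusted p under 0.05, against 4.71% of all probe sets. The leptin and saline frogs were separated without overlap in 0 of the 11, against 5.15% of all probe sets separated upward and 6.78% downward. Hormone SEs ran from 0.60 to 2.49 log2 units.

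Without saline frog 1, 10 of 11 were lower in leptin frogs, where 46.7% of all probe sets were lower, and the median hormone difference was -0.22, against 0.013 over all. Those 10 differences ran from -0.91 (*lhb.L*) to -0.024 (*prl.1.L*), and the groups overlapped in all 10 and in *fshb.L*, where 9.84% of all probe sets were separated upward and 10.3% downward. The probe set at least 1 log2 unit higher was then *fshb.L* alone, where 0.123% of all probe sets were. None of the 11 passed the adjusted threshold (0% of all probe sets), and 0 of 11 had an unadjusted limma p under 0.05, against 3.26%. The probe sets share frogs and tissue blocks, so their like signs are not independent results.

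**Figure D2:**
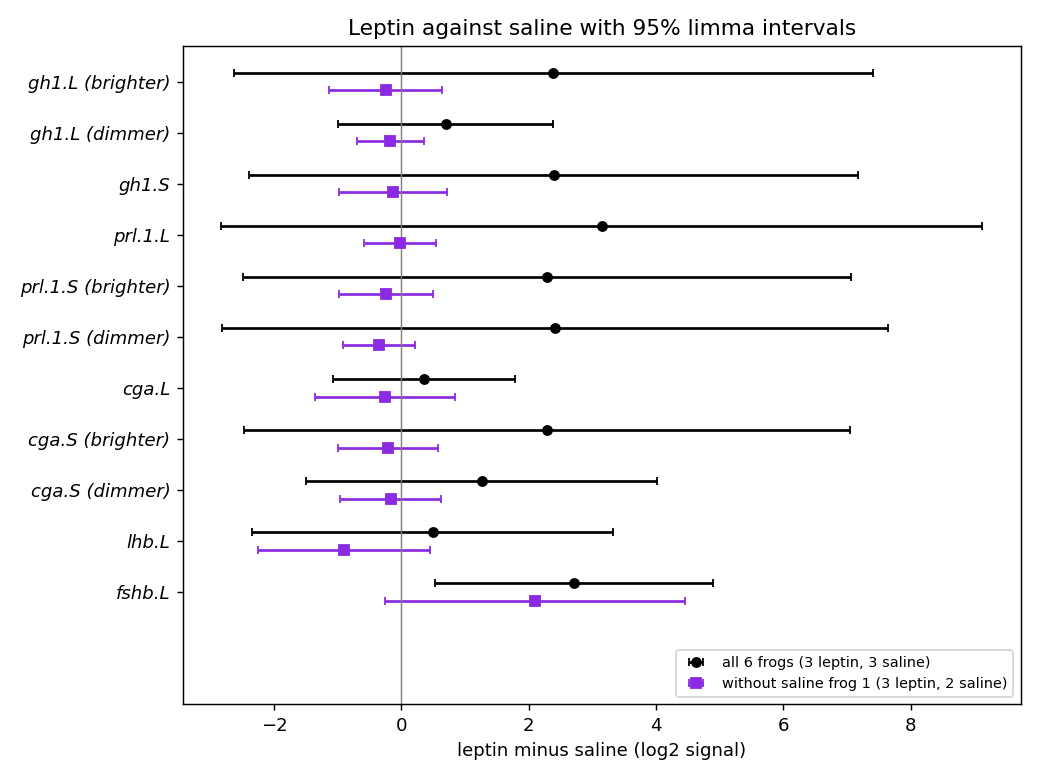
Leptin minus saline difference in log2 signal (horizontal axis) for each hormone probe set, with 95% limma intervals, from all 6 frogs (black circles) and without saline frog 1 (violet squares). With all frogs the 11 differences lie above 0, and without saline frog 1 only *fshb.L*, at 2.09, stays above 0.

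Among the 5 remaining frogs, saline frog 3 had the highest hormone signals. It was the highest of all 6 frogs in 10 of 11 probe sets, where 19.9% of all probe sets were highest in that frog, and the exception was *fshb.L*. Leaving *fshb.L* aside, saline frog 3 lay 0.31 to 1.42 log2 units above the median of the 5 frogs. Leptin frog 6 lay below that median in 10 of these 10 probe sets, by up to 0.81 units, and saline frog 2 in 9 of 10, by up to 0.51 units. The 9 probe sets of *gh1*, *prl.1* and *cga* spanned 0.62 to 1.42 log2 units over the 5 frogs, at percentiles 78.4 to 97.7 of the spans of all probe sets. *lhb.L* spanned 2.25 units, the 207th widest.

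The mean of skeletal muscle markers was also highest in saline frog 3, the frog highest in most hormone probe sets. It was next highest in saline frog 1, the frog lowest in every hormone probe set. The mean of 19 measured muscle markers of 29 listed lay between 6.28 and 6.43 in leptin frogs, and at 6.64, 6.33 and 7.78 in saline frogs 1, 2 and 3. Skeletal alpha-actin (*acta1.S*) read 7.30, 7.16 and 6.67 in leptin frogs, against 7.92, 7.32 and 10.90 in saline frogs. The part of muscle tissue, or of the extent of the dissection, in the hormone values of that frog was not tested.

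**Figure D3:**
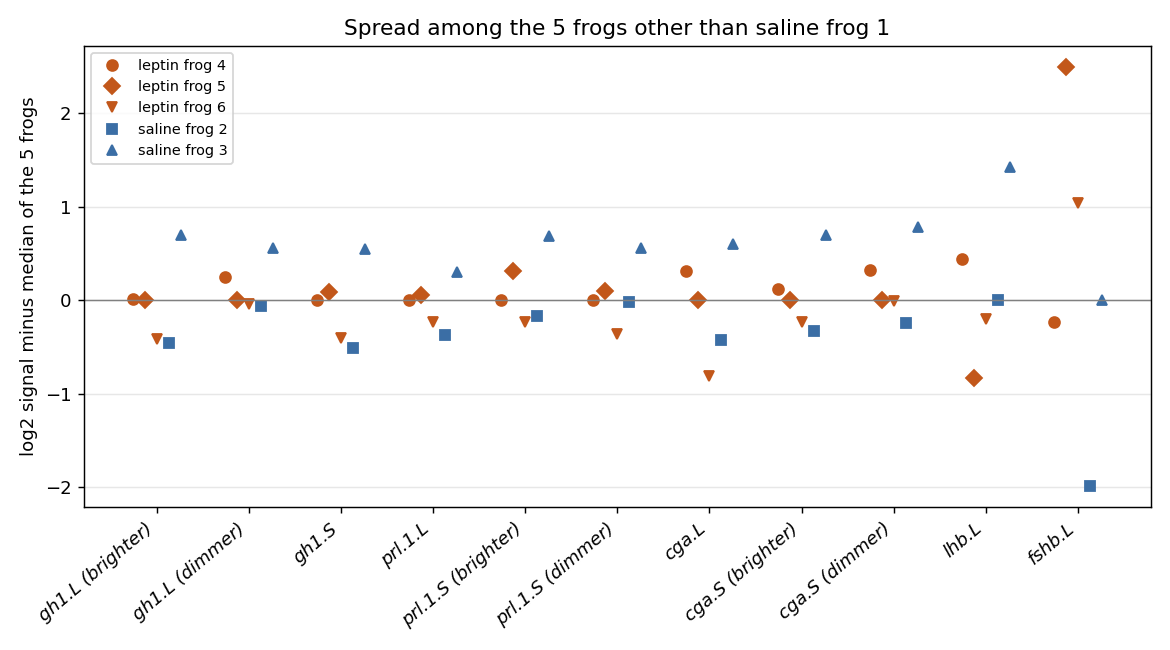
Log2 signal minus the median of the 5 frogs other than saline frog 1 (vertical axis) for each hormone probe set, with leptin frogs 4, 5 and 6 in orange and saline frogs 2 and 3 in blue. Saline frog 3 (triangle up) is on top in 10 probe sets, and *fshb.L* spans 4.48 units with leptin frog 5 on top.

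Homeologs were compared in 3 genes, where the exact test cannot give less than 0.1 for 3 frogs against 3 and could not pass 0.05. For *gh1*, the leptin response of the .L copy minus that of the .S copy was -0.12 without saline frog 1 (exact permutation p = 0.2, two-sided, the smallest that 3 against 2 allow), and -0.0018 with all frogs (exact permutation p = 1). The signal of *gh1.L* minus that of *gh1.S* was 0.14, 0.039 and 0.11 in leptin frogs 4, 5 and 6, against 0.17 and 0.27 in saline frogs 2 and 3. These did not overlap, whereas saline frog 1, at -0.14, lay below them all. For *prl.1* the response of .L exceeded that of .S by 0.86 with all frogs (exact permutation p = 0.2) and by 0.21 without saline frog 1 (p = 0.4, exact permutation). For *cga* the difference of responses was -1.94 with all frogs (exact permutation p = 0.6) and -0.040 without saline frog 1 (p = 1, exact permutation). The larger *prl.1* and *cga* values came with saline frog 1, in which the .L and .S signals fell short of the other frogs by unequal amounts. There *prl.1.L* and the brighter *prl.1.S* stood at percentiles 1.58 and 17.2 of the array, and *cga.L* and the brighter *cga.S* at 20.6 and 7.78. The median of the other 5 frogs was 6.91 for *cga.L* and 11.51 for the brighter *cga.S*. It was 13.08 for *prl.1.L* and 12.21 for the brighter *prl.1.S*, so both *prl.1* probe sets were bright in those frogs. A dim probe set such as *cga.L* has less room to fall. Probes also differ in how strongly they hybridize, so in neither gene can unequal deficits of signal be read as unequal changes of transcript. These values give no ratio of .L to .S transcript.

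The blocks were labelled as holding pituitary and hypothalamus, and markers of both were present. The proopiomelanocortin gene *pomc.L*, which encodes the precursor of ACTH and MSH, read 14.18, 14.25 and 14.01 in leptin frogs, against 9.11, 13.86 and 14.37 in saline frogs. In saline frog 1 it was 5.07 log2 units below the median of the others, and *pomc.S* was 5.42 below. Both stayed above that array's median of 7.44, with *pomc.S* at 8.28. The hormone probe sets stood between percentiles 0.307 and 25.6 of that array. Over the 6 frogs *pomc.L* stood at percentile 99.1 of mean signal. Signals of different probe sets are not amounts of transcript, so these positions give no relative amounts. *pomc* is also made by neurons of the hypothalamus, which the block contains, and the source of its remaining signal was not tested. The mean of 13 measured hypothalamus and neuron markers of 20 listed lay between 10.44 and 10.55 in leptin frogs, and at 10.36, 10.41 and 10.73 in saline frogs 1, 2 and 3. The mean of 11 measured erythrocyte markers of 16 listed lay between 9.73 and 9.83 in leptin frogs, and at 10.27, 9.49 and 9.88 in saline frogs 1, 2 and 3. Saline frog 1 was thus lowest in neural markers by a narrow margin and highest in erythrocyte markers, and the part of either in its hormone values was not tested.

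Transcription factors of the pituitary lineage had a median deficit of 0.13 log2 units in saline frog 1, over 14 measured of 22 listed. Of the 14, 1 (*lhx3.L*) lay 1 unit or more below the others, where 67 of 9273 genes did. The LIM factor *lhx3.L*, needed for most anterior pituitary cell types in mouse, read 5.34, 5.81 and 5.58 in leptin frogs, against 4.20, 4.94 and 6.23 in saline frogs. Its deficit of 1.38 was smaller than every hormone deficit, which ran from 1.74 (*cga.L*) to 9.54 (*prl.1.L*). The other 5 frogs spanned 1.29 units in *lhx3.L*. It stood at percentile 8.21 of the signals of saline frog 1, within the range of the hormone probe sets there. *gata2.L*, a factor of gonadotropes and thyrotropes in mouse, lay 0.86 log2 units below the median of the others in saline frog 1. The pan-pituitary factor *pitx1.L* lay 0.66 below. Saline frog 2 was nearly as low in both, only 0.18 (*gata2.L*) and 0.083 (*pitx1.L*) above saline frog 1. The other 5 frogs spanned 1.32 and 1.16 units in these factors, more than the deficits. In saline frog 1 *otx2.L* lay 0.95 below the median of the others, whereas *neurod4.L* lay 0.22 above and *isl1.S* 0.087 above. Of the 14 factors, 7 were lowest in that frog, where 1442 of 9273 genes were. Several of these factors are also made in brain. The listed factors *pou1f1* and *nr5a1* were not analysed here. In the leptin comparison 8 of the 14 factors were higher and 6 lower (median difference 0.14), where 4162 of 9273 genes were higher and 5111 lower (median -0.018), and 0 passed limma's adjusted threshold. The smallest p in this list belonged to the early-response nuclear receptor *nr4a1.L* (difference 0.72, SE 0.10, limma adjusted p = 0.734).

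**Figure D4:**
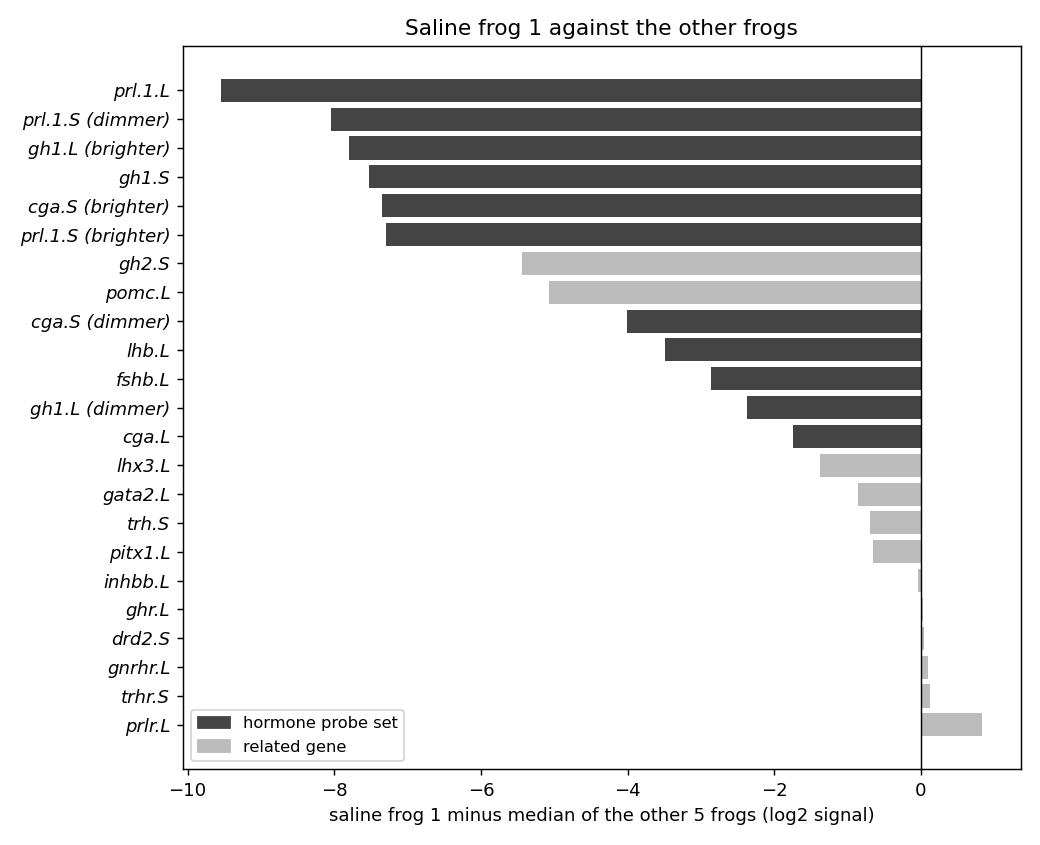
Log2 signal of saline frog 1 minus the median of the other 5 frogs (horizontal axis) for the 11 hormone probe sets (dark bars) and related genes (light bars), sorted with the largest deficit on top. The hormone bars run from -9.54 (*prl.1.L*) to -1.74 (*cga.L*), and the receptors *gnrhr.L*, *trhr.S* and *drd2.S* lie between 0.045 and 0.12.

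Receptors for signals to the hormone cells were measured for 14 genes. Besides receptors for hypothalamic factors, the list held those for thyroid hormone (*thra.L*), glucocorticoid (*nr3c1.L*), estrogen (*esr1.L*), leptin (*lepr.S*) and activin (*acvr2a.L*). Of the 14, 0 lay 1 log2 unit or more below the others in saline frog 1, which is no departure from the 67 of 9273 genes that did. The gonadotropin-releasing hormone receptor *gnrhr.L* read 6.39, 6.32 and 6.95 in leptin frogs, against 6.55, 6.48 and 6.44 in saline frogs. The thyrotropin-releasing hormone receptor *trhr.S* read 4.39, 4.59 and 4.42 in leptin frogs, against 4.54, 4.12 and 4.53 in saline frogs, at percentile 10.8 of mean signal. The dopamine receptor *drd2.S*, through which dopamine restrains prolactin cells in mammals, had a leptin minus saline difference of -0.25 (SE 0.10, limma adjusted p = 0.906), with the groups not overlapping. In this list *thra.L* had the smallest p (difference 0.30, SE 0.079, limma adjusted p = 0.906), and its groups did not overlap either. Over all probe sets, 5.15% were separated upward and 6.78% downward, so such separation is common in this comparison. Of 14 measured receptors of 33 listed, 6 were higher and 8 lower in leptin frogs, with a median difference of -0.013, and 0 passed the adjusted threshold. Brain also expresses several of these receptors, and the signal of brain and pituitary is not separated here.

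Hypothalamic releasing and inhibiting factors were measured for 7 of 27 listed genes, of which 2 were higher and 5 lower in leptin frogs (median difference -0.18), with 0 past limma's adjusted threshold. Without saline frog 1, 0 were higher and 7 lower (median difference -0.38), where 5123 of 9273 genes were lower (median -0.019). Thyrotropin-releasing hormone (*trh.S*), which in amphibians also acts on prolactin cells, read 10.10, 10.00 and 9.63 in leptin frogs, against 9.40, 10.22 and 10.66 in saline frogs. Its difference was -0.18 with all frogs (SE 0.32) and -0.53 without saline frog 1 (SE 0.20, limma adjusted p = 0.962). The *trh.L* probe sets differed by 0.021 (shared probes) and -0.017 with all frogs. Without saline frog 1 they differed by -0.023 (shared probes) and -0.063. A difference between the *trh* homeologs was not tested. The *prlh.L* probe set, for prolactin-releasing hormone, had a difference of -0.31 (SE 0.28). Saline frog 3 was highest in *trh.S*, in *prlh.L* (10.24, against 9.12 to 9.34 in the other 5 frogs) and in *tac1.L*, as it was in 10 hormone probe sets.

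Receptors for the hormones themselves were measured in the block for 3 genes. The growth hormone receptor *ghr.L* was dim and differed by -0.094 (SE 0.20, limma adjusted p = 0.941). The prolactin receptor *prlr.L* read 9.02, 8.33 and 7.30 in leptin frogs, against 9.50, 8.66 and 8.69 in saline frogs. Its highest value was in saline frog 1, the frog with the lowest prolactin signal, and its difference was -0.73 (SE 0.45, limma adjusted p = 0.906). The second copy, *prlr.S*, had a difference of the other sign, 0.25 (SE 0.13). It was highest in leptin frog 4 (6.06, against 5.79 in saline frog 1). A relation of receptor to hormone signal was not tested. The follicle-stimulating hormone receptor *fshr.L* differed by 0.10. In the list of growth hormone and prolactin partners, 6 of 10 measured genes were higher and 4 lower (median difference 0.017), with the smallest p for the feedback inhibitor *socs2.S* (-0.33, SE 0.11, limma adjusted p = 0.906). In the list of glycoprotein hormone partners and activin system genes, 4 of 7 were higher and 3 lower (median difference 0.096). There the smallest p belonged to *fstl1.L*, a follistatin-like gene (0.51, SE 0.19, limma adjusted p = 0.906). The gene *inhbb.L*, for a subunit shared by activin and inhibin, differed by 0.24 (SE 0.13) with the groups not overlapping. Among all probe sets 5.15% were separated upward in this way. For scale, *socs3.S*, an inhibitor induced by leptin signalling, differed by 1.00 (SE 0.091, limma adjusted p = 0.306).

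The genes nearest to the hormones in profile over the 6 arrays included *gh2.S* and *pomc.L*, which also encode pituitary hormones. Likeness was measured as the root mean square difference between profiles centred on their own means, with each gene represented by its brightest probe set. The 9273 genes less those of the hormone set were ranked. For *gh1.L*, *prl.1.L* and *cga.S*, the nearest were *gh2.S*, *pomc.L* and *rbp4l.L* in that order, at 0.90, 1.05 and 1.57 log2 units from *gh1.L*. Against *cga.S* the distances were 0.77, 0.90 and 1.44, and against *prl.1.L* they were 1.55, 1.67 and 2.21. The nearest genes to *lhb.L* were *rbp4l.L* (0.69), *epcam.S* (0.77) and *trappc5.L* (0.80), and to *fshb.L* they were *pmel-a* (1.12), *rbp4l.L* (1.21) and *pax7.L* (1.21). All these neighbours were lowest in saline frog 1, so their likeness rests largely on that array.

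Over the 5 arrays other than saline frog 1 the neighbours differed. They were *LOC398368* (0.065), *csrp1.L* (0.073) and *frzb.L* (0.088) for *gh1.L*, and *frzb.L* (0.049), *LOC398368* (0.081) and *col9a1-b* (0.082) for *cga.S*. For *prl.1.L* they were *ift27.L* (0.020), *krt51.L* (0.033) and *LOC100127312* (0.041). For *lhb.L* they were *sult1a1.S* (0.22), *ckm.L* (0.28), the muscle creatine kinase, and *MGC146443.L* (0.31), with saline frog 3 highest in each. For *fshb.L* no gene came nearer than *c1orf174.S* (0.97), against a spread of 1.48 log2 units in *fshb.L* itself. No test was made of these likenesses.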

How the data were processed

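Per the labels' protocols, total RNA was purified by Trizol and column, and 250 ng per frog went into the amplification with biotin label. The table deposited by the authors holds log2 signals of 6 arrays. RMA, affy and limma are listed in the submitters' processing notes, with no version and no role. Further steps are not stated in those notes. RMA adjusts arrays to one another, so differences are relative to the array as a whole. Of 32635 probe sets, the 96 AFFX controls were left out. Of the 32539 tested, 15495 had 1 symbol, 279 several and 16765 none in the array annotation. Entrez identifiers of the hormone probe sets matched the RefSeq table of Xenopus_laevis_v10.1, which changed 0 symbols. No coordinates are given because the annotation's build is not stated.

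The groups were compared with limma 3.58.1 under R 4.3.3 (lmFit, eBayes) over all probe sets, two-sided, with no covariate and Benjamini-Hochberg adjustment at 0.05. The steps were tested on simulated data. Exact permutation tests used scipy 1.17.1. Intervals are 95%, unadjusted. Precision is limited by the number of arrays, which have no depth. The members and lists were chosen with earlier results of these data known. Named genes were all hormone probe sets, the 3 nearest profiles per hormone, the smallest p-values per list and a set of regulators and receptors. A gene outside the hormone set stands for its single-symbol probe set of highest mean. Alternatives were each frog left out, array scaling, variance moderation, array weights, a filter on dim probe sets and the mean of a gene's probe sets.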

Additional observations from a re-analysis of the deposited data

How the results depend on the processing

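No paired analysis was possible because the groups share no replicate numbers. Leaving out saline frog 1 reversed the sign of 10 of 11 hormone differences, and leaving out any other frog kept every sign. With each frog left out in turn, *gh1* ran from -0.25 to 3.99, *prl.1* from -0.024 to 4.90, *cga* from -0.22 to 3.80, *lhb* from -0.91 to 1.55 and *fshb* from 2.02 to 3.53. Among the further probe sets, *gh1.L* (dimmer) ran from -0.18 to 1.29, *gh1.S* from -0.13 to 3.91, *prl.1.S* from -0.24 to 3.76 (brighter) and from -0.35 to 3.95 (dimmer), *cga.L* from -0.26 to 0.92 and *cga.S* (dimmer) from -0.17 to 2.23. The lower end of each range but that of *fshb* is the value without saline frog 1. The number of probe sets past the threshold ran from 0 to 4, the 4 without saline frog 2, and 0 hormone probe sets passed under any alternative run. The homeolog difference in *gh1* response ran from -0.12 to 0.081, with sign changes to 0.036, 0.081 and 0.028 without saline frog 2, saline frog 3 and leptin frog 5. Median centring, quantile scaling, no or robust moderation, array weights and gene means changed no sign and no call of a hormone. Array weights raised every hormone difference, with *prl.1.L* at 4.26, against 3.15, and the brighter *gh1.L* at 3.41, against 2.39. They moved *cga.L* to 0.84, against 0.35, and *lhb.L* to 0.92, against 0.49. Gene means moved *cga* to 1.30, against 2.29, *gh1* to 1.82, against 2.39, and *prl.1* to 2.62, against 3.15. The filter on dim probe sets removed *fshb.L*, *cga.L* and the dimmer *gh1.L*, which have no value under it, and changed no sign or call of the other 8. The response of *fshb.L* minus *lhb.L* ran from 1.21 (without leptin frog 5) to 3.21 (without leptin frog 4). The deficits of saline frog 1 kept their sign and moved by less than the SD of the other 5 frogs under either scaling. With 3 frogs a group, of which 1 stood apart, SEs of 0.60 to 2.49 limited which hormone differences could be called.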
